A study of Mus musculus with 4 samples.

Results

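The miR-148 and miR-152 family was read here as 3 mature miRNAs, mmu-miR-148a-3p, mmu-miR-148b-3p and mmu-miR-152-3p. They were taken by name from the 1881 mouse miRNAs of the array, and all 3 were present on each of the 4 arrays. The RNA came from exosome fractions, small vesicles that 3T3-L1 cells, a mouse fibroblast-like line able to become adipocytes when induced, had released into their medium and that were collected by ultracentrifugation. D0 was the end of culture in growth medium. D4, D12 and D16 were counted from the change to a first differentiation medium with 1-methyl-3-isobutylxanthine, dexamethasone and insulin, which was replaced after 2 days by a medium with insulin alone. All media held fetal bovine serum that had been depleted of exosomes. Fractions of separate experiments were pooled for each day (2 experiments according to the methods, 3 according to the sample labels) and read on 1 single-colour (Cy3) array a day. The comparison between days asks how the miRNAs released by the cells change while they become adipocytes. With 1 array a day there is no replicate check, no p-value is given, and the error printed with a signal or ratio is the technical error of the array software.

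A miRNA guides a silencing complex to messenger RNAs, mainly through the bases near its 5′ end called the seed. The members of this family share a seed and so are expected to share many targets, of which the DNA methyltransferase Dnmt1 and the LDL receptor are known examples. miR-148a has been described as promoting adipogenesis and as abundant in adipose tissue, while the separate miR-29 family is known for silencing the related methyltransferases Dnmt3a and Dnmt3b. Each member is the guide arm of its hairpin, and the opposite 5p arm is usually degraded.

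The 3 mature sequences are shown because they define the family and because the array had to tell them apart by few bases. They are from RefSeq (GRCm38.p6), written 5′ to 3′, with the seed, bases 2 to 8, in capitals.
mmu-miR-148a-3p: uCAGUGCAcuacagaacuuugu
mmu-miR-148b-3p: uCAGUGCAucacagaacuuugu
mmu-miR-152-3p: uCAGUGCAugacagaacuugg
Counted from 1 at the 5′ end, miR-148a-3p differed from miR-148b-3p at 2 of 22 bases (C9U and U10C) and from miR-152-3p at 3 of 21 (C9U, U10G and U20G). miR-148b-3p and miR-152-3p differed at 2 of 21 bases (C10G and U20G). Of the 1881 miRNAs of the array, 1608 had a mature sequence in the table, and only these 3 carried the letters CAGUGCA at bases 2 to 8. The shorter stretch AGUGCA, bases 3 to 8 of the family, lay 1 base nearer the 5′ end, at bases 2 to 7, in 7 other miRNAs of the array, among them miR-130a-3p, miR-130b-3p and miR-301a-3p.

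The 3 genes lie on different chromosomes. In GRCm38.p6, mmu-miR-148a-3p is at chr6:51269829-51269850 on the minus strand, within the gene model Gm38821. mmu-miR-148b-3p is at chr15:103285185-103285206 on the plus strand, within Copz1, and mmu-miR-152-3p is at chr11:96850439-96850459 on the plus strand, within Copz2. Copz1 and Copz2 are paralogs that encode the zeta subunits of the COPI vesicle coat. The table used gives no exons, and the host genes were not measured on these arrays.

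The arrays differed in brightness as a whole, and this bears on every ratio below. The D0 array had 329 detected miRNAs, the D4 array 426, the D12 array 406 and the D16 array 380, a miRNA being detected when at least 1 of its probes had a signal above 3 times its error. Their summed signals, from D0 on, were 12716, 39129, 30966 and 21873. The 4 spike-in RNAs, added to control labelling and hybridization, also read brighter than at D0, by 1.82 times (D4), 1.72 times (D12) and 1.27 times (D16). The median coefficient of variation between spots of a probe was 21.1% on the D0 array, and 7.19% (D4), 7.78% (D12) and 8.07% (D16) on the later arrays. Ratios were not scaled between arrays, so those of the members are read beside the median ratio of all miRNAs and beside scaled values.

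None of the 3 members was detected at D0, 2 were detected at D4, and all 3 were detected at D12 and at D16. Where a day was not detected, its signal was taken at a limit of 3 times the summed error of its probes, or the lowest detected signal of the array if that was higher, and the ratio is a lower bound. More of a miRNA in each vesicle and more vesicles or RNA in a sample cannot be told apart in these values.

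miR-148a-3p was not detected at D0 or D4. Its limit was 4.91 at D0 and 7.31 at D4, and the signal summed over its probes without regard to detection was 0.166 and 4.93. It was 25.7 ± 2.46 at D12 and 22.9 ± 2.11 at D16. The signals of D12 and D16 lay far above both limits and differed from each other by less than their combined technical error. The same days stood apart among single spots, of which 0 of 30 were well above background at D0, 1 of 30 at D4, and 30 of 30 at both D12 and D16.

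miR-152-3p was not detected at D0, where its limit was 4.99 and its summed probe signal 2.48, although the software's flag called 7 of 15 spots of one probe and 12 of 15 of the other positive and significant against their background. On D4 its signal was 29.5 ± 2.73, on D12 it was 47.7 ± 3.82 and on D16 it was 31.6 ± 2.61. All 30 spots were well above background on each of these 3 days and none at D0. Its highest signal was that of D12. Unscaled, D4 and D16 differed by less than their technical errors, but the D16/D4 ratio was 1.39 to 2.02 when scaled. miR-152-3p was thus present in the exosome fraction at a day when miR-148a-3p was still below its limit.

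miR-148b-3p stayed near its limit on every day. It was not detected at D0, where its limit was 4.93 and its summed probe signal 1.00, and its signal was 3.86 ± 1.25 on D4, 6.07 ± 1.26 on D12 and 4.12 ± 0.969 on D16. The errors of all 3 detected days overlapped. Spots well above background numbered 0 of 30 at D0 and at D4, 11 at D12 and 7 at D16.

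**Figure D1:**
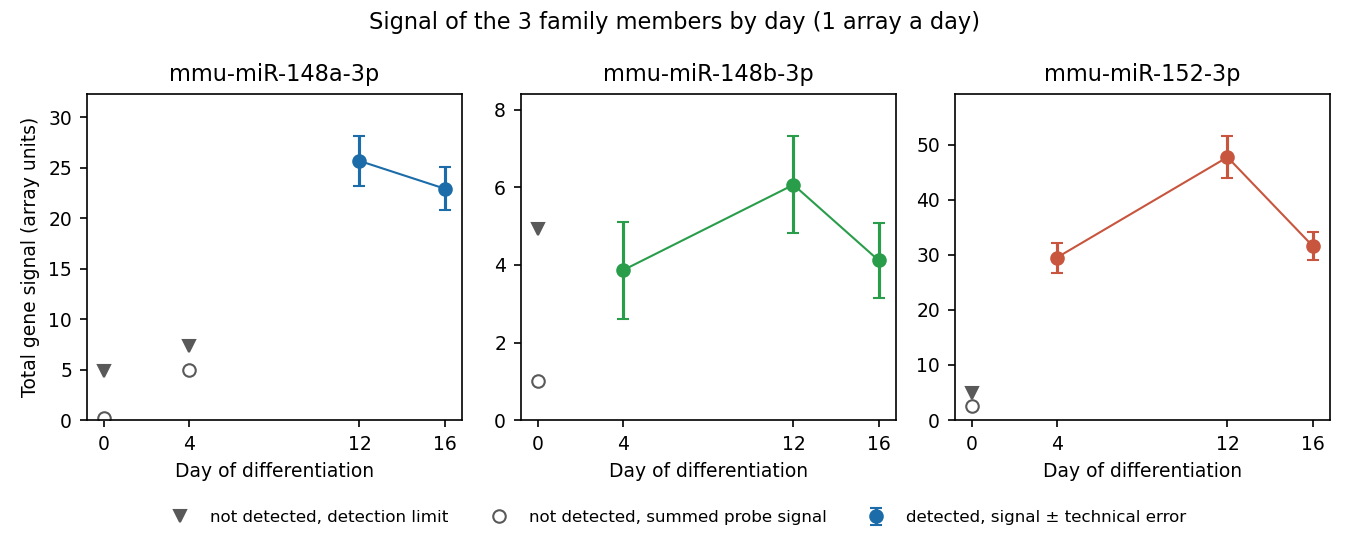
Total gene signal (array units, y axis, starting at 0, with its own range in each panel) of the 3 members against the day of differentiation (x axis), 1 array a day. Filled circles are detected signals with the technical error, triangles are limits and open circles summed probe signals on days without detection; miR-148a-3p is below its limit at D0 and D4 and at 25.7 at D12, while miR-152-3p is already at 29.5 at D4.

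The passenger arms of the same hairpins were below detection. mmu-miR-148a-5p, mmu-miR-148b-5p and mmu-miR-152-5p were not detected on any of the 4 arrays, and none of their 30 spots was well above background on any day. Their limits at D12 were 6.58, 6.59 and 6.58. The guide arms alone were therefore measured, and no ratio of guide to passenger arm can be given.

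Each member was read by 2 probes with 15 spots each, and the probes of miR-148a-3p and of miR-152-3p moved alike. For miR-148a-3p, the probe A_54_P1273 had mean spot signals of 0.668 (D0), 6.23 (D4), 33.0 (D12) and 37.3 (D16). The probe A_54_P1274 went from 0.114 to 11.7, 62.7 and 70.9 over the same days. At D4 all 15 spots of A_54_P1274 and 9 of 15 of A_54_P1273 were positive and significant against their background by the software's flag. A low signal at D4, under the detection limit, was thus seen by both probes, and at D12 the lowest spot of each probe (25.4 and 52.6) was above its highest spot at D4 (11.03 and 24.4).

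For miR-152-3p, the mean spot signal of A_54_P2333 was 3.84 on D0, 40.0 on D4, 65.7 on D12 and 57.3 on D16. That of A_54_P2334 was 7.88, 67.0, 112.0 and 91.7 in the same order. The D12/D4 ratio of the probe signals was 1.60 ± 0.302 for A_54_P2333 and 1.63 ± 0.260 for A_54_P2334. The lowest D12 spots of both probes (53.9 and 97.2) lay above their highest D4 spots (44.2 and 79.5).

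For miR-148b-3p the probes disagreed. A_54_P1382 had mean spot signals of 3.02 (D0), 14.0 (D4), 22.6 (D12) and 19.4 (D16), and its spots at D12 (18.0 to 28.5) were above all spots of D4 (5.44 to 17.7). A_54_P1381 stayed near 0 on every day, with means of 1.70, 0.706, 0.295 and 0.810, and was not detected on any array. The detected signals of miR-148b-3p given above are therefore those of 1 probe.

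**Figure D2:**
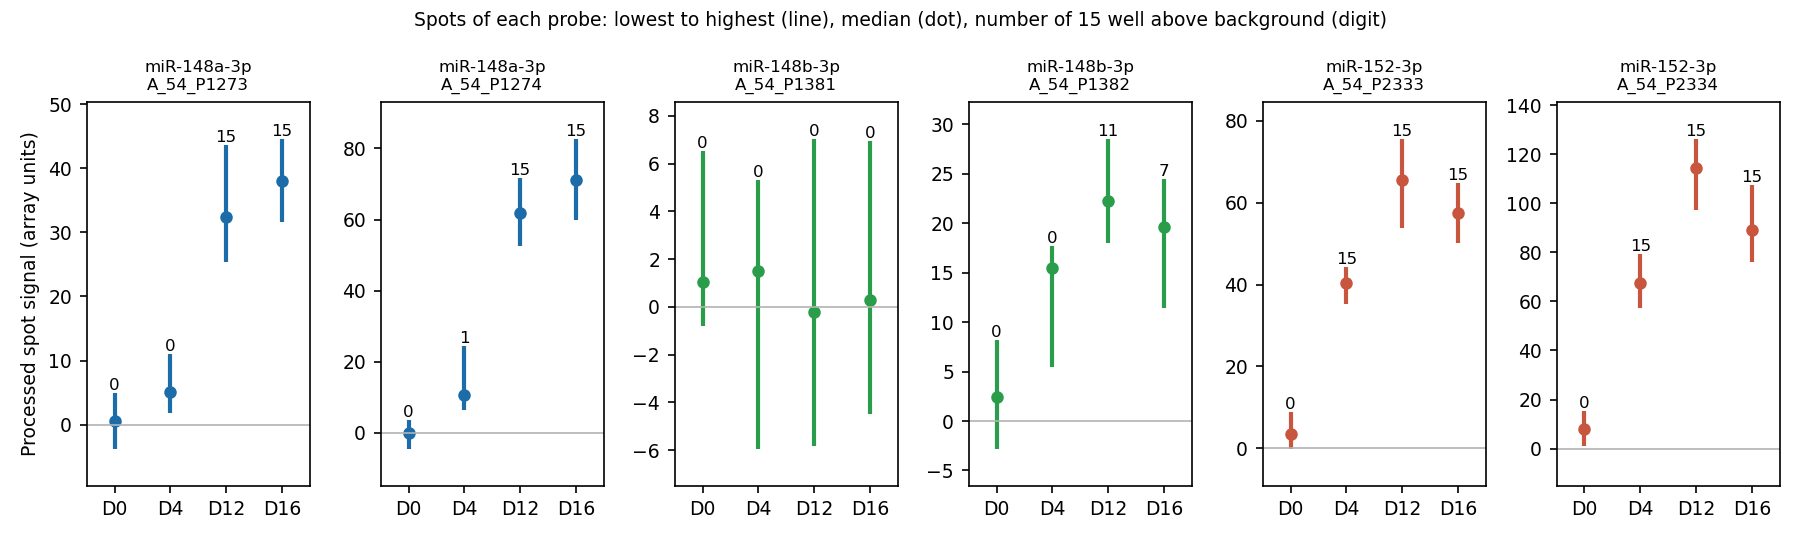
Processed spot signal (array units, y axis, with its own range in each panel) of the 6 probes at D0, D4, D12 and D16 (x axis), without outlier spots. Lines run from the lowest to the highest spot, dots are medians and digits give how many of 15 spots were well above background; A_54_P1381 of miR-148b-3p is near 0 on all days, while both probes of miR-148a-3p have all 15 spots well above background at D12 and D16 alone.

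Set against D0, miR-152-3p was at least 5.91-fold higher on D4, at least 9.56-fold on D12 and at least 6.33-fold on D16. miR-148a-3p was at least 5.23-fold higher at D12 and at least 4.67-fold at D16, and has no ratio at D4, where neither day was detected. miR-148b-3p was at least 1.23-fold higher at D12, and its bounds at D4 and D16 were under 1, with a limit summed over both its probes. With the limit of A_54_P1382 alone, the probe that was detected, the bounds were 1.57-fold on D4, 2.46-fold on D12 and 1.67-fold on D16, a choice made after the values were seen. Most of the array was also brighter than at D0, with a median ratio over miRNAs detected on both days of 2.47 for D4 (317 miRNAs), 1.91 for D12 (297 miRNAs) and 1.32 for D16 (289 miRNAs).

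A ratio or bound above 2 was reached by 1 of the 2 members with a ratio at D4, against 54.3% of the 438 miRNAs detected on at least 1 of the days D0 and D4. At D12 it was reached by 2 of 3, against 41.6% of 438, and at D16 by 2 of 3, against 27.9% of 420. Scaled, 2 of 3 members were above 2 at D16 against 10.2% (75th percentile over miRNAs detected on all 4 arrays), 13.3% (90th percentile) and 12.4% (quantile normalization) of all. At D12 they were 2 of 3 against 13.01% (90th percentile) and 11.6% (quantile normalization), and 1 of 3 against 8.68% with the 75th percentile. The standing of the count beside the array thus depends on the scaling, and 3 miRNAs are few for such a comparison.

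Scaling lowered the bounds against D0, and those of miR-148a-3p and miR-152-3p stayed above 1. When arrays were scaled by the 75th percentile of the signal over the 283 miRNAs detected on all 4 arrays, which was 3.29 times higher at D12 than at D0, the D12/D0 bound fell to at least 2.91-fold for miR-152-3p and at least 1.59-fold for miR-148a-3p. The median D12/D0 ratio of all miRNAs compared, with limits for those not detected, was then 0.552, against 1.82 unscaled. At D4 the bound of miR-152-3p fell to 1.39-fold, and 0 of 2 members were above 2, against 4.79% of all. By the spike-in RNAs the D12/D0 bounds were 5.55-fold and 3.04-fold beside a median of 1.05. For miR-148b-3p the bound at D12 fell under 1 with each of these scalings. With the limit of its detected probe alone it was 1.43 by the spike-ins and 0.748 by the 75th percentile, so whether a rise from D0 is shown depends on the scaling and the limit. The D12 spots of that probe all lay above its highest D0 spot (8.21) before scaling.

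The steps from D4 to D12 and from D12 to D16 do not use the D0 array. From D4 to D12, miR-148a-3p was at least 3.52-fold higher, miR-152-3p was 1.62 ± 0.198 times its D4 signal and miR-148b-3p 1.57 ± 0.603 times. Unscaled, the array moved the other way, with a median D12/D4 ratio of 0.865 over the 374 miRNAs detected on both days, and the spike-ins had a ratio of 0.944. The direction of the array depended on the scaling, with a median over all miRNAs compared of 1.12 (75th percentile), 1.09 (quantile normalization), 0.913 (spike-ins) and 0.885 (effective spot size divided out). A ratio above 2 was reached by 1 of 3 members, miR-148a-3p, against 4.15% (19) of the 458 miRNAs detected on at least 1 of these days. All 3 members kept a ratio above 1 under each scaling tried. That of miR-148b-3p lay within its technical error of 1 unscaled and with the effective spot size divided out (1.61). With the 75th or the 90th percentile over miRNAs detected on all 4 arrays all 3 were above 2, against 7.64% of all. There, miR-148b-3p (2.03 with the 75th percentile) and miR-152-3p (2.10) lay within their technical errors of that threshold. With normexp, whose offset of 50 draws dim signals together, the ratio of miR-148a-3p was 1.52, and 0 of 3 members and 0.437% of all miRNAs were above 2.

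Of the 458 miRNAs, 6 had a D12/D4 ratio above the bound of miR-148a-3p. They were miR-451a (5.42 ± 0.583), miR-144-3p (5.01 ± 0.645), miR-223-3p (4.12 ± 0.633), miR-486a-5p (4.07 ± 1.29), miR-126a-3p (4.04 ± 0.666) and miR-101a-3p (3.55 ± 1.17). miR-451a, miR-144-3p and miR-486a-5p are known from red blood cells, miR-223-3p from myeloid cells and miR-126a-3p from endothelium. The bound of miR-148a-3p may lie under its true ratio. With its own summed probe signal at D4 in place of the limit the ratio was 5.22. That D4 signal was below detection, so this is neither a bound nor a measured ratio.

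**Figure D3:**
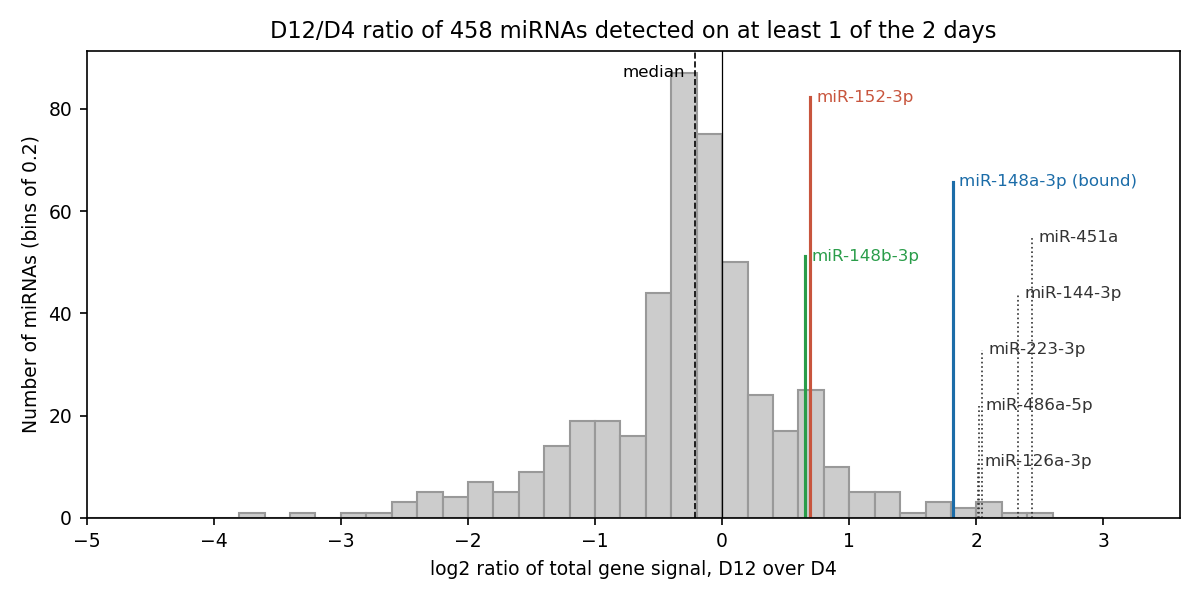
Number of miRNAs (y axis, bins of 0.2) by the log2 ratio of total gene signal at D12 over D4 (x axis) for the 458 miRNAs detected on at least 1 of these days, with those not detected on the other day at their limits. Solid coloured lines mark the 3 family members, dotted lines 5 miRNAs of blood cells and endothelium, and the dashed line the median; miR-148a-3p (a lower bound, log2 1.81) lies near the right end, and miR-148b-3p (0.65) and miR-152-3p (0.69) lie right of the median.

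From D12 to D16, miR-152-3p was at 0.662 ± 0.0762 of its D12 signal, miR-148b-3p at 0.678 ± 0.213 and miR-148a-3p at 0.893 ± 0.118. The median of the 371 miRNAs detected on both days was 0.703 and the spike-ins were at 0.739. None of the 3 members was above 2 or below 0.5, against 6.99% of 415 miRNAs. The effective spot size by which the software multiplies signals was 0.760 at D12 and 0.6 at D16. With it divided out, miR-148a-3p was at 1.13 of its D12 signal, so its direction turned, while miR-152-3p was at 0.838 and miR-148b-3p at 0.859. Scaling by the 75th percentile over miRNAs detected on all 4 arrays gave 1.30 for miR-148a-3p, 0.962 for miR-152-3p and 0.986 for miR-148b-3p. Quantile normalization put miR-148b-3p at 1.31, so that its direction turned as well, but this lay within its technical error of 1. miR-152-3p was below 1 under each scaling tried, but its highest scaled value, 0.962, lay within its technical error of 1.

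By unscaled signal, miR-152-3p and miR-148b-3p were alike at D4 and D16. The share of the detected signal, which does not depend on a scaling factor of an array, put D16 beside D12. The 3 members together carried 0% of it at D0, where none was detected, 0.0852% on D4, 0.257% on D12 and 0.268% on D16. A member not detected counted as 0 here, not at its limit. The values of D0 and of D4, which leaves out miR-148a-3p, may therefore be too low. For miR-148a-3p alone the share was 0.0830% at D12 and 0.105% at D16. For miR-152-3p it was 0.0754% on D4, 0.154% on D12 and 0.144% on D16, and for miR-148b-3p it was 0.00988%, 0.0196% and 0.0188%. The share was thus small on the 3 days with detection, and for miR-152-3p and miR-148b-3p it was higher at D12 and D16 than at D4.

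The miRNA whose pattern over D4, D12 and D16 lay nearest to miR-152-3p was miR-148b-3p, and the reverse held too. The distance between their centred log2 signals was 0.03, the smallest of the 350 miRNAs detected on these 3 days. Next came let-7c-5p, at 0.04 from miR-152-3p and 0.06 from miR-148b-3p, with signals of 168.2, 274.1 and 174.8 at D4, D12 and D16. The next after it was miR-193b-3p, at 0.09 and 0.11, with 26.6, 43.6 and 26.6. With quantile normalization, tried after the values were seen, this likeness was lost. That scaling was run over all miRNAs, with those not detected at 0.1. It averages the dimmest detected signals with that value from arrays that detected fewer miRNAs. The distance between the 2 members was then 1.26, and 45 miRNAs lay nearer to miR-148b-3p and 287 nearer to miR-152-3p. Distances over 3 days are a description of these arrays, and those of miR-148b-3p rest on 1 faint probe. Whether that probe also reads miR-152-3p, which differs from miR-148b-3p at 2 of 21 bases, was not tested. miR-148a-3p was detected on only 2 days, and no likeness was computed for it.

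Families with related or adjoining roles are set beside the members by their own changes over days. All 3 miR-29 guide arms were above 2 at D4 against D0, beside 54.3% of all miRNAs, and 0 of 3 beside 4.79% with the 75th percentile scaling. Their D12/D4 ratio was 0.329 ± 0.0366 for miR-29a-3p, 0.191 ± 0.0274 for miR-29b-3p and 0.756 ± 0.112 for miR-29c-3p. Thus 2 of 3 were below 0.5, unscaled and under each scaling tried, beside 7.86% to 14.4% of all miRNAs. miR-29c-3p was under 1 with each scaling, but its highest value, 0.979, lay within its technical error of 1. The miR-26 family, which is described as promoting adipogenesis, had D12/D4 ratios of 1.33 ± 0.147 (miR-26a-5p) and 1.83 ± 0.216 (miR-26b-5p). Of the miR-130 and miR-301 family, known for silencing Pparg, the master regulator of adipogenesis, 2 of 4 members were detected. The shorter seed stretch was found in 3 of the 4, and miR-301b-3p had no mature sequence in the table. Their D12/D4 ratios were 1.69 ± 0.176 for miR-130a-3p and 1.14 ± 0.249 for miR-301a-3p. These members of the miR-26, miR-130 and miR-301 families kept ratios above 1 under each scaling tried. That of miR-301a-3p lay within its technical error of 1 unscaled, by the spike-ins (1.21) and with the effective spot size divided out (1.17).

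In the list of 17 miRNAs described as rising in or promoting adipogenesis, 16 were detected at D0 or D12, and 12 of these had a D12/D0 ratio or bound above 2, beside 41.6% of all miRNAs. Their median was 6.62, against 1.82 for all miRNAs, in both with limits for undetected days. With the 75th percentile scaling 8 of 16 were above 2, beside 8.68% of all, and the medians were 2.01 and 0.552. Of the 8 ratios measured on both days the highest was that of miR-26b-5p (22.6 ± 7.40) and the lowest that of miR-21a-5p (2.47 ± 0.303), the brightest at D12. With the 75th percentile scaling these became 6.87 and 0.750, so the direction of miR-21a-5p turned, and its share of the detected signal was 1.103% at D0 and 1.118% at D12. From D4 to D12, 0 of 16 were above 2 (4.15% of all) and 2 were below 0.5 (14.4% of all), with a median of 1.21 against 0.862 for all, and with the 75th percentile scaling 2 were above 2 (7.64% of all), with medians of 1.57 and 1.12. In the list of 11 miRNAs described as falling in or restraining adipogenesis, 5 were detected at D0 or D12 and 3 of these were above 2, with a median of 3.44. With the 75th percentile scaling 1 of 5 was above 2, with a median of 1.05. Of its 3 measured D12/D0 ratios the highest was that of miR-130a-3p (9.30 ± 1.18), also its brightest at D12, and the lowest that of miR-27a-3p (3.44 ± 0.463), or 2.83 and 1.05 with that scaling. From D4 to D12, 0 of 7 were above 2 and 2 were below 0.5, with a median of 0.784, and with the 75th percentile scaling 1 was above 2 and 2 below 0.5 (7.86% of all), with a median of 1.015.

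Several markers of blood cells were higher at D12 than at D4, like miR-148a-3p, with a D12/D4 ratio above 2 for 3 of 4 markers of red cells and serum and 1 of 2 leukocyte markers detected on these days, beside 4.15% of all miRNAs. These counts were the same under each scaling tried, where up to 9.83% of all miRNAs were above 2. Of 4 markers of red cells and serum, 1 was detected at D0, 3 at D4 and 4 at D12 and D16, and their summed signal was 9.40, 468.2, 2530.0 and 1653. The most abundant was miR-451a, with signals of 9.40, 442.6, 2400 and 1559 from D0 to D16. The liver miRNA miR-122-5p was detected at D12 (6.26 ± 1.27) and D16 (4.13 ± 0.972) alone, the same days as miR-148a-3p. Its D12 signal was under its D4 limit of 7.22, which is summed over all its probes. Its D12 sum over all probes was 9.25, so whether a rise from D4 is shown depends on which probes are summed. Of 3 leukocyte markers, 0 were detected at D0, 1 at D4 and 2 at D12 and D16, with summed signals of 16.9, 76.9 and 52.9 from D4 on, most of it miR-223-3p, and miR-150-5p was not detected on any day. The endothelial miR-126a-3p was not detected at D0 and read 13.4 on D4, 54.0 on D12 and 59.9 on D16. None of 3 markers of striated muscle was detected on any day. The part of such RNA in the signals of miR-148a-3p, miR-148b-3p and miR-152-3p was not tested.

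Of 5 markers of mesenchymal cells, the lineage of the 3T3-L1 line, 3 were detected at D0 and 4 on each later day. Their summed signal went from 95.7 on D0 to 854.0 on D4, 716.1 on D12 and 454.2 on D16, and the most abundant was miR-199a-3p, whose D12/D4 ratio was 0.949 ± 0.100 and up to 1.23 when scaled. miR-145a-5p was not detected on any day. The other D12/D4 ratios were 0.519 ± 0.0593 for miR-214-3p, 0.758 ± 0.103 for miR-199a-5p and 1.23 ± 0.490 for the faint miR-143-3p, which like the 3 family members was above 1 and reached 1.26 to 3.46 when scaled. The median of the 4 detected markers was 0.854, beside 0.862 for all miRNAs compared, and 1.11 beside 1.12 with the 75th percentile scaling.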

How the data were processed

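The authors deposited the Feature Extraction 11.0.1.1 output (11.0 in the submitters' processing notes) of 4 arrays as background-subtracted intensity values, not scaled between arrays, with detection flags. Before that, fractions of equal protein amount were mixed for each day. The deposited total gene signal is the sum over probes above 3 times their error, listed at 0.1 where none passes, and this rule gave the software's call for 1881 of 1881 miRNAs on every array. No spot of a miRNA probe was saturated.

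From these values, ratios, lower bounds, shares and distances were computed with Python 3.11.15, numpy 2.4.6 and pandas 2.3.3, and drawn with matplotlib 3.10.9. For normexp, with an offset of 50, the median signals of spots and background were passed to limma 3.58.1 (R 4.3.3). Quantile normalization was run over all miRNAs, with those not detected at 0.1, which affects dim signals such as those of miR-148b-3p. Technical errors of ratios combine the relative errors of both days. Spots flagged as outliers were left out of spot values. A miRNA counted as called with a ratio or lower bound above 2, or a ratio or upper bound below 0.5, over miRNAs detected on at least 1 of the 2 days. Distance was Euclidean over days with detection. The steps were tested on simulated data. No test was made, since each day has 1 array, and their number limits the precision.

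The miRNAs named are the 3 members, their 5p arms, the 3 nearest patterns, 3 comparison families, 2 lists on adipogenesis (with the highest and lowest measured D12/D0 ratio and the brightest at D12) and cell type markers. The members and lists were chosen with earlier results of these data known. The 6 miRNAs above miR-148a-3p in D12/D4, and those in the closing section, were chosen after their values were seen. Alternatives were other scalings, signal summaries, spots, bounds and folds. Sequences and host genes were matched by miRNA name to RefSeq tables of GRCm38.p6, and coordinates of the older build in the array header were not used.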

Additional observations from a re-analysis of the deposited data

How the results depend on the processing

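The bounds against D0 moved with the treatment of the D0 array, and the ratios or bounds of miR-148a-3p and miR-152-3p stayed above 1 under each alternative that gave a value. Values for D12/D4 and D16/D12, the ratio to a miRNA's own summed probe signal, the limit from detected probes alone, and scaled values of D16/D4, of the lists, of their miRNAs and of the pattern distance were alternatives chosen after seeing the data, and the cause of the shifts was not tested. No paired analysis was possible because each day has 1 array. Dim signals near the detection limit bound all ratios of miR-148b-3p.

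Scaling by the 75th percentile over miRNAs detected on all 4 arrays gave bounds for miR-152-3p of 1.39 (D4/D0), 2.91 (D12/D0) and 2.80 (D16/D0), and for miR-148a-3p of 1.59 (D12/D0), 2.06 (D16/D0) and 4.55 (D12/D4). miR-152-3p D12/D4 was then 2.10, and D16/D12 was 1.30 for miR-148a-3p, 0.986 for miR-148b-3p and 0.962 for miR-152-3p. The members above 2 numbered 0 (D4/D0), 1 (D12/D0) and 3 (D12/D4), beside 4.79%, 8.68% and 7.64% of all. The 90th percentile gave 2.00, 4.12 and 3.97 for miR-152-3p, 2.26, 2.92 and 4.48 for miR-148a-3p and 2.06 for miR-152-3p D12/D4. D16/D12 was 1.30, 0.985 and 0.962, and 0 (D4/D0) and 3 (D12/D4) members were above 2, beside 11.9% and 7.64% of all. Quantile normalization gave 2.02, 3.69 and 3.49 for miR-152-3p and 2.17, 2.62 and 5.63 for miR-148a-3p in the same order. D12/D4 was then 4.37 for miR-148b-3p and 1.83 for miR-152-3p, and D16/D12 was 1.21, 1.31 and 0.946. In D12/D4, 2 members were above 2, beside 9.83% of all. The spike-ins gave 3.24, 5.55 and 4.97 for miR-152-3p against D0, 3.04 and 3.67 for miR-148a-3p, and 1.21, 0.917 and 0.895 for D16/D12.

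With the effective spot size divided out, bounds were 4.55 (D4/D0) and 7.55 (D12/D0) for miR-152-3p and 4.13 (D12/D0) for miR-148a-3p, and D16/D12 was 1.13 for miR-148a-3p and 0.838 for miR-152-3p. Mean spot signals gave 4.55, 7.62, 4.18, 1.12 and 0.831 for the same 5 ratios. Ratios to the lowest detected signal are not bounds, since the own summed signal of miR-152-3p at D0 and of miR-148a-3p at D4 was higher than it. In these, miR-152-3p was at 24.2 (D4/D0), 39.2 (D12/D0) and 25.9 (D16/D0). miR-148a-3p was at 21.1 (D12/D0), 18.8 (D16/D0) and 14.7 (D12/D4), and miR-148b-3p at 4.98 (D12/D0). At D4, 2 members were above 2, beside 68.95% of all miRNAs. The higher of the lowest detected signal and the own summed signal, also no bound, gave 11.9, 19.2 and 12.7, then 21.1, 18.8 and 5.22, then 4.98. At D4 it gave 2 members above 2, beside 63.2% of all. The limit from the probes detected on the other day gave a bound of 2.46 for miR-148b-3p D12/D0, with 3 members above 2 beside 47.0% of all. Normexp gave 1.67, 2.16 and 1.94 for miR-152-3p against D0, and 1.72, 1.78 and 1.52 for miR-148a-3p (D12/D0, D16/D0 and D12/D4). It gave 1.29 for miR-152-3p D12/D4, and 1.04, 0.981 and 0.897 for D16/D12. Members above 2 numbered 0 (D4/D0), 1 (D12/D0), 0 (D16/D0) and 0 (D12/D4), beside 13.2%, 10.3%, 7.14% and 0.437% of all. With a threshold of 1.5-fold, 3 members passed in D12/D4, beside 7.86% of all.

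Spots of the left or right side alone moved no ratio by more than its technical error, but on the right miR-148b-3p was not detected at D4 and had no D12/D4 ratio. Neither other share of the detected signal moved by more than the technical error. The 75th percentile over all miRNAs is 0.1 on every array and changed nothing, no probe of a member was detected both at D0 and later, and bounds under 1 have no value here.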

Other observations

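The late detection of miR-148a-3p placed it in a small group. Of the 1552 miRNAs not detected at D0, the D4 array detected 109, the D12 array 109 and the D16 array 91, and 18 were below detection at both D0 and D4 and detected at both D12 and D16. Besides miR-148a-3p these 18 held miR-378a-3p, which is encoded in an intron of Ppargc1b and described as promoting adipogenesis, with signals of 10.4 ± 1.72 at D12 and 8.92 ± 1.39 at D16. They also held miR-142a-3p, a miRNA of blood cells (7.36 ± 1.32 and 5.30 ± 1.02), and the liver miRNA miR-122-5p. The D12/D4 bounds of these 2 were 1.02 and 0.868, neither above 1 by more than its technical error. These bounds set detected probes at D12 over a limit summed over all probes. The D12 sums over all probes, 9.19 and 9.25, were above the D4 limits of 7.21 and 7.22. The group of 18 is set by detection alone. Several of its miRNAs had D12/D4 bounds under 1, and only miR-148a-3p had a bound above 2. miR-152-3p and miR-148b-3p were among the 67 miRNAs not detected at D0 and detected on each of the 3 later days.

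Over the whole span from D4 to D16, miR-148a-3p was at least 3.14-fold higher, while miR-152-3p was at 1.07 ± 0.133 and miR-148b-3p at 1.07 ± 0.426 of their D4 signals. The median over the 356 miRNAs detected at D4 and D16 was 0.592. With the 75th percentile scaling these values were at least 5.91, 2.02 and 2.00 beside a median of 1.11, and by the spike-in RNAs at least 4.497, 1.53 and 1.53 beside 0.848. With quantile normalization the 2 members no longer moved alike, at 1.73 for miR-152-3p and 5.72 for miR-148b-3p, with miR-148a-3p at least 6.80. This scaling averages the dimmest signals with the 0.1 of undetected miRNAs, and miR-148b-3p was dim on every day. Of the 450 miRNAs detected on at least 1 of these days, 3 had a ratio above the bound of miR-148a-3p, namely miR-126a-3p (4.48 ± 0.734), miR-144-3p (3.69 ± 0.475) and miR-451a (3.52 ± 0.380).

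Of the 7 other miRNAs with the shorter seed stretch of the family at bases 2 to 7, miR-721 was lower at D4 than at D0. It was 12.2 ± 1.04 at D0 and 4.40 ± 0.898 at D4, where the sum over all its probes was 8.04. It was not detected at D12 or D16. Its D12 limit of 6.61, summed over all its probes, was above its D4 signal but under that D4 sum. Whether a fall after D4 is shown thus depends on which probes are summed. miR-130a-3p went from 15.4 ± 1.61 at D0 to 143.2 ± 10.4 at D12. miR-130b-3p, miR-130c, miR-6341 and miR-6389 were not detected on any day.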
